A study of Mus musculus with 20 samples.

Results

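The transcripts described here are the 10 genes of the PGC-1 coactivator circuit in cultured renal myofibroblasts, the matrix-secreting cells of kidney fibrosis. They were chosen by name from the 51826 genes of the count table and comprise the coactivators Ppargc1a, Ppargc1b and Pprc1, the nuclear receptors Ppara, Ppard, Pparg and Esrra, and the factors Nrf1, Gabpa and Tfam. All 10 were found in the table and all 10 were among the 20407 genes that passed the filter on low counts.

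The myofibroblasts were grown from kidneys of C57BL/6J mice and were used at the second passage. WWP2-/- mice carry a deletion that removes the full-length and N-terminal forms of the ubiquitin ligase WWP2, and their WT littermates came from the same heterozygous breeding. Cells of each genotype were left untreated or were treated with TGFβ1, the cytokine that drives fibroblasts to become myofibroblasts, which gives 4 groups of 5 poly-A RNA libraries each. The study's methods name a dose of TGFβ1 and durations that differ by experiment, and its figure legends state the duration for the bulk RNA-seq. The labels repeat neither dose nor duration. The labels do not say whether libraries of a group came from separate animals, so p-values measure only the spread between these libraries.

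PGC-1 proteins do not bind DNA themselves. They are recruited by transcription factors, among them the PPAR receptors, the estrogen-related receptor ERRα (Esrra), nuclear respiratory factor 1 (Nrf1) and the ETS factor GABPA, and raise the transcription of nuclear genes for fatty acid oxidation and the respiratory chain. One of their targets, Tfam, is imported into mitochondria, where it packages and transcribes the mitochondrial genome. In the kidney, PGC-1α and PPARα are best known from the proximal tubule, whose cells live on fatty acid oxidation and lose it in fibrosis. Transcripts of the mitochondrial genome were not measurable, because all 37 mitochondrial genes of the table were at 0 counts in every library.

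Counts assigned to genes totalled 47520759 to 73063697 per library. Wwp2 itself was at 53.2 ± 3.43 CPM (counts scaled to a common library total, SD, n = 5) in untreated WT cells and 50.2 ± 6.37 CPM in WT cells with TGFβ1. It was at 21.5 ± 1.99 CPM in untreated WWP2-/- cells and 19.5 ± 2.47 CPM in WWP2-/- cells with TGFβ1, with no overlap between genotypes. In bulk RNA, fewer cells of a type and less RNA per cell cannot be told apart. The 10 myofibroblast markers had counts in every library, although Tagln was at most 29.3 CPM and Pdgfra was below 1 CPM in 7 of 20. Acta2, the smooth muscle actin that defines the cell type, was at 39.7 CPM in untreated WWP2-/- replicate 3 and at 49.0 CPM in TGFβ1-treated WWP2-/- replicate 1, against 945.0 to 3337 CPM in the other 18 libraries. Values with and without these 2 libraries are given wherever they bear on a result. Xist, the transcript of the inactive X chromosome, reached 1 CPM in 4 of 5 WT libraries of either treatment, in 2 of 5 untreated WWP2-/- libraries and in 1 of 5 TGFβ1-treated WWP2-/- libraries. Of the libraries that reached it, untreated WWP2-/- replicate 1 was at only 35.5 CPM, and the others were at 110 to 297 CPM. Xist marks female cells, so genotype and the sex of the source cells were not balanced, and values with Xist as a covariate are given where they bear on a result.

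On a scale corrected for exon length (CPM divided by kilobases of exon, RPKM), the 10 regulators spanned a wide range. From the highest median over 20 libraries to the lowest, the order was Gabpa (13.1 RPKM), Esrra (11.2), Pprc1 (10.01), Ppard (6.87), Tfam (6.84), Pparg (3.27), Nrf1 (2.64), Ppargc1a (0.247), Ppargc1b (0.200) and Ppara (0.108). Most neighbours in this order were not separated: Gabpa exceeded Esrra in 15 of 20 libraries, Esrra exceeded Pprc1 in 13, Ppard exceeded Tfam in 13, Pparg exceeded Nrf1 in 13 and Ppargc1a exceeded Ppargc1b in 13. Pprc1 exceeded Ppard in 19 of 20 libraries, Tfam exceeded Pparg in 19 and Ppargc1b exceeded Ppara in 17. The clear step lay between Nrf1 and Ppargc1a, whose ranges did not overlap. In these cells Pprc1 was thus the most abundant PGC-1 family transcript in every library and Ppard exceeded Pparg in 19 of 20.

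**Figure D1:**
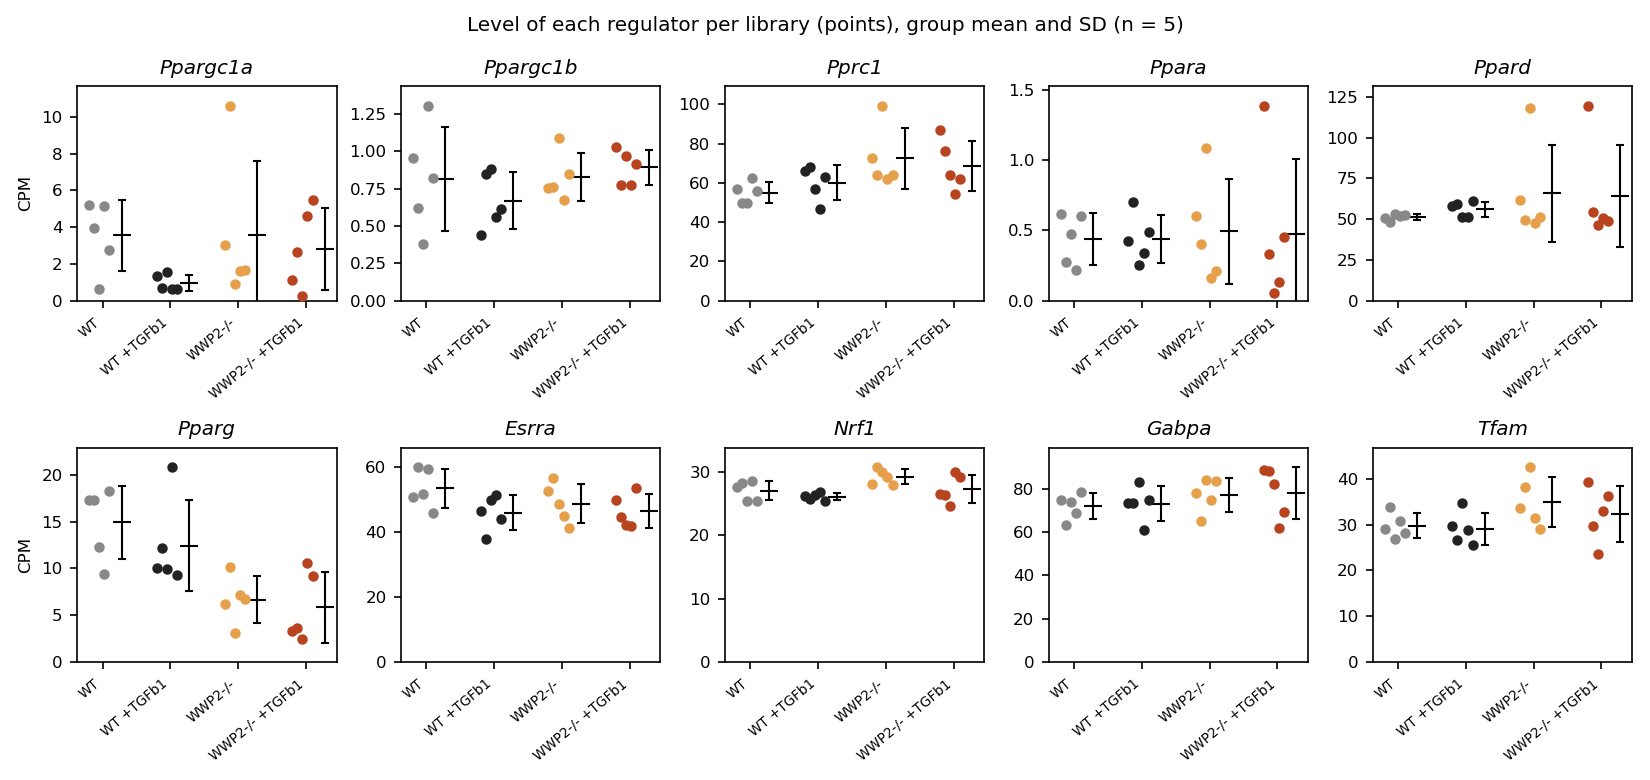
CPM (y axis, from 0) of each of the 10 regulators in every library (points, in order of replicate number) of WT and WWP2-/- myofibroblasts, untreated or with TGFβ1, with the group mean and SD (n = 5) beside the points, the lower arm of an SD larger than its mean being cut at 0. Ppargc1a spreads from 0.256 to 10.6 CPM and its groups overlap, Pparg sits lower in most WWP2-/- libraries, and 1 library of each WWP2-/- group lies near 120 CPM for Ppard (118 and 119.7).

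Ppargc1a encodes PGC-1α, the inducible coactivator of mitochondrial biogenesis and fatty acid oxidation, and its gene spans chr5:51454250-51567726 on the minus strand (GRCm38). It was the most variable of the 10, with a coefficient of variation of 93.3% over 20 libraries against a median of 37.2% over all genes tested. Untreated WT replicates 1 to 5 held 5.21, 3.97, 0.628, 5.16 and 2.76 CPM, and WT replicates with TGFβ1 held 1.34, 0.684, 1.54, 0.613 and 0.613 CPM. Except for replicate 3, the untreated WT libraries all lay above every TGFβ1-treated WT library. Untreated WWP2-/- replicates 1 to 5 held 3.01, 10.6, 0.904, 1.60 and 1.65 CPM, and WWP2-/- replicates with TGFβ1 held 1.11, 2.66, 0.256, 4.61 and 5.50035 CPM. Both WWP2-/- groups overlapped both WT groups, and untreated WWP2-/- replicate 2 stood far above the rest of its group. These values rest on few reads, 14 to 656 per library.

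The RefSeq promoter window of Ppargc1a (GRCm38.p6, chr5:51567676-51567975, minus strand, 250 bases before to 50 bases after the start site) is shown because E-boxes, CANNTG, are the sites that bHLH factors such as TWIST1 bind and because this gene varied most. Capitals mark the E-boxes.

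Ppargc1a: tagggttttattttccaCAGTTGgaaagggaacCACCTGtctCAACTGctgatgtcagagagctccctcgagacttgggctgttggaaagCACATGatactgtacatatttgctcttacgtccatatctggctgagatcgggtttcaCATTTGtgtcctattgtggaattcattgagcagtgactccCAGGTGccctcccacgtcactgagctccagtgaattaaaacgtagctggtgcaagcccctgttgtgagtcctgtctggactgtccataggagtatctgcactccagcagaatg

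This window held 6 E-boxes, whose first bases lay at positions -233, -217, -208, -160, -103 and -63 from the start site. At least 1 E-box was found in 72.3% of 32851 RefSeq promoter windows, and at least 6 in 0.67% of them. The form CATCTG, searched on both strands and contained in CANNTG, was in 17.2% of all windows and not among these 6. The window held no match to the cyclic AMP response element TGACGTCA, which was in 1.79% of all windows. A match describes letters and is not a site of binding, and no binding was measured in these libraries.

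Ppargc1b encodes PGC-1β, the close relative of PGC-1α that maintains basal mitochondrial content, and varied less between libraries than Ppargc1a, with a coefficient of variation of 27.5%. Its group means were 0.816 ± 0.349 CPM in untreated WT cells, 0.669 ± 0.190 in WT cells with TGFβ1, 0.825 ± 0.160 in untreated WWP2-/- cells and 0.892 ± 0.116 in WWP2-/- cells with TGFβ1 (SD, n = 5). Per length, its mean was below that of Ppargc1a in untreated WT cells (0.204 against 0.538 RPKM), in untreated WWP2-/- cells (0.207 against 0.539) and in WWP2-/- cells with TGFβ1 (0.224 against 0.429), and near it in WT cells with TGFβ1 (0.168 against 0.145). All 4 groups overlapped, on 20 to 77 reads per library.

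Pprc1 encodes PRC, the family member induced by growth signals, on chromosome 19. Untreated WT libraries held 56.7, 49.5, 49.9, 62.6 and 56.0 CPM and untreated WWP2-/- libraries 72.95, 64.0, 99.5, 62.2 and 64.1 CPM. With TGFβ1, WT libraries held 65.9, 68.3, 56.9, 46.6 and 63.2 CPM and WWP2-/- libraries 86.9, 76.2, 64.1, 54.6 and 61.9 CPM. In both WWP2-/- groups the highest value came from the library with little Acta2, and untreated, 4 of 5 WWP2-/- libraries lay above all WT libraries. Pprc1 shares 177 of its 6284 exon bases with Ldb1 on the opposite strand, and because the strand setting of the counting is not given in the sources used here, a few of its reads may belong to Ldb1.

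Among the PPAR receptors, Pparg, best known for fat storage and adipocyte formation, was lower in most WWP2-/- libraries in both treatments. Untreated WT libraries held 17.3, 17.3, 12.3, 9.38 and 18.3 CPM and untreated WWP2-/- libraries 6.20, 10.1, 3.08, 7.21 and 6.69 CPM. With TGFβ1, WT libraries held 10.01, 12.2, 9.93, 20.8 and 9.27 CPM and WWP2-/- libraries 3.30, 3.65, 2.42, 10.6 and 9.19 CPM. In each treatment, 4 of 5 WWP2-/- libraries lay below every WT library, and 1 WWP2-/- library overlapped the WT range.

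Ppard, the widely expressed receptor that drives fatty acid oxidation outside the liver, held 48.4 to 53.2 CPM in untreated WT libraries (median 51.7) and 51.1 to 61.0 in WT libraries with TGFβ1 (median 57.9). Untreated WWP2-/- libraries held 62.0, 49.5, 118, 47.8 and 51.6 CPM and WWP2-/- libraries with TGFβ1 held 119.7, 54.2, 46.4, 50.5 and 49.1 CPM. The values of 118 and 119.7 are those of the libraries with little Acta2, and no other library exceeded 62.0 CPM.

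Ppara, the receptor of fatty acid oxidation in liver and proximal tubule, was the lowest of the 10. It held 3 to 85 reads per library, or 0.0549 to 1.39 CPM, and the same 2 libraries held the highest values, 1.09 and 1.39 CPM, against at most 0.702 CPM in the other 18. The group means were 0.439 ± 0.183 and 0.441 ± 0.170 CPM in WT cells without and with TGFβ1, and 0.494 ± 0.376 and 0.474 ± 0.536 CPM in WWP2-/- cells (SD, n = 5).

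Of the downstream factors, Nrf1 was the steadiest of all 10, at 24.6 to 30.7 CPM over the 20 libraries with a coefficient of variation of 6.54%. Gabpa, the DNA-binding subunit of the respiratory factor once named NRF-2, held 60.7 to 88.6 CPM, and Esrra 38.1 to 60.1 CPM. Gabpa shares 397 of its 5687 exon bases with Atp5j on the opposite strand and Esrra 73 of 4387 with Trmt112, so a part of their reads is uncertain. Tfam held 23.6 to 42.6 CPM. Its mean was 29.8 ± 2.68 CPM in untreated WT cells, 29.1 ± 3.53 in WT cells with TGFβ1, 35.0 ± 5.45 in untreated WWP2-/- cells and 32.4 ± 6.09 in WWP2-/- cells with TGFβ1 (SD, n = 5), and the highest library of either WWP2-/- group, at 42.6 and 39.3 CPM, was again the library with little Acta2.

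Tfam is the textbook target of Nrf1 and GABPA, and its RefSeq promoter window (GRCm38.p6, chr10:71237995-71238294, minus strand) is shown with the GABPA core CCGGAAG in capitals.

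Tfam: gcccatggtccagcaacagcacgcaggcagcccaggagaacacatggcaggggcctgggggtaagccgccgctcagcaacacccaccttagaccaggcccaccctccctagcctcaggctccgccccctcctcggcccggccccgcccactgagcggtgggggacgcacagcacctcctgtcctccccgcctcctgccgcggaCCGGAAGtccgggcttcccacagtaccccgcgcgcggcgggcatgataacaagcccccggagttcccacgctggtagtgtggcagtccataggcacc

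The core began at position -47 from the start site and was found, on either strand, in 8.86% of all windows. The window also held 1 E-box. The NRF1 core GCGCANGCG, in 6.25% of all windows, was not in this one. RefSeq windows were listed for 9 of the 10 genes, with 12 windows in all. The GABPA core was also in the window of Gabpa itself, and the NRF1 core was in those of Esrra and Ppara. The nuclear receptor half-site AGGTCA, in 16.3% of all windows, was in 2 of the 3 windows of Pparg and in that of Pprc1, and its longer form for ERRα, AAGGTCA, in 4.72% of all windows, was in none of the 12.

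The quasi-likelihood test of edgeR, with Benjamini–Hochberg adjustment, was applied to differences between groups over all 20407 genes. The comparison of WWP2-/- against WT cells with TGFβ1 asks which transcripts depend on WWP2 in stimulated myofibroblasts. Over all genes it called 1238 (6.07%) at the adjusted threshold of 0.05, split into 429 with more and 809 with less transcript in WWP2-/- cells, and none of the 10 regulators was among them. DESeq2's Wald test called 1 of the 10, Pparg. At an unadjusted p below 0.05, 1 of the 10 passed against 24.7% of all genes, and no regulator was without overlap between the groups, against 5.53% of all genes. The median log2 fold change of the 10 was 0.01 and that of all genes 0.05.

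Pparg came closest, with a log2 fold change of -1.28 (SE 0.38, 95% confidence interval -2.08 to -0.48, adjusted p = 0.0530 by edgeR), or 0.412 of the WT level. It crossed the threshold with DESeq2's Wald test (adjusted p = 0.0132), where 13.1% of all genes did. With the replicate number as a block it crossed the threshold too (-1.35, adjusted p = 0.0462 by edgeR), where 3.28% did, although same-numbered libraries did not deviate together. It also crossed it without WT replicate 3 (adjusted p = 0.0301), without WWP2-/- replicate 4 (0.0395), and without the 2 libraries with little Acta2 (-1.16, adjusted p = 0.0433), and under other settings and omissions the adjusted p lay between 0.0519 and 0.140 by edgeR. The direction was lower in WWP2-/- cells under all 18 alternatives, with values between -1.61 and -0.99. With Xist as a covariate the value was -1.43 (adjusted p = 0.0896 by edgeR). Within the libraries with Xist, 1 WWP2-/- library (3.30 CPM) stood against 4 WT libraries (9.27 to 20.8 CPM). Within those without Xist, 4 WWP2-/- libraries (2.42 to 10.6 CPM) lay on both sides of the 1 WT library (9.93 CPM). These are too few for a test.

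Ppargc1a was higher by a log2 value of 1.40 in WWP2-/- cells with TGFβ1 (SE 0.70, interval -0.07 to 2.87), which did not pass the test (adjusted p = 0.224 by edgeR), and the interval runs from no difference to a 7.33-fold higher level. Of the 5 WWP2-/- libraries 3 lay above every WT library and 1 lay below. With Xist as a covariate the value fell to 0.66, with the replicate number as a block it was 0.95, and without the 2 libraries it was 1.57 (adjusted p = 0.647, 0.505 and 0.122 by edgeR). Within the libraries with Xist, 1 WWP2-/- library (1.11 CPM) stood against 4 WT libraries (0.613 to 1.34 CPM), and within those without Xist, 4 WWP2-/- libraries (0.256 to 5.50035 CPM) against 1 WT library (1.54 CPM), which is too few for a test.

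For the other 8 regulators the intervals in this comparison bound the size that could have gone unseen. They were narrow for Nrf1 (-0.21 to 0.08), Esrra (-0.32 to 0.09), Tfam (-0.21 to 0.27) and Gabpa (-0.30 to 0.27), and wider for Pprc1 (-0.27 to 0.41), Ppard (-0.51 to 0.65), Ppargc1b (-0.27 to 0.88) and Ppara (-1.41 to 1.36). Ppard depended on the libraries and the covariate used: with all libraries the log2 fold change was 0.07 (adjusted p = 0.907), without the 2 it was -0.32 (adjusted p = 0.0484 by edgeR), in a fit that called 17.2% of all genes, and without TGFβ1-treated WWP2-/- replicate 1 alone it was -0.33 (adjusted p = 0.318). With Xist as a covariate Ppard moved the other way, to 0.45 (adjusted p = 0.136 by edgeR), Ppara to 0.76 (0.295) and Pprc1 to 0.28 (0.251). Over the other settings Ppara ran from -1.04 to 0.76, and with single libraries left out from -1.06 to 0.24.

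**Figure D2:**
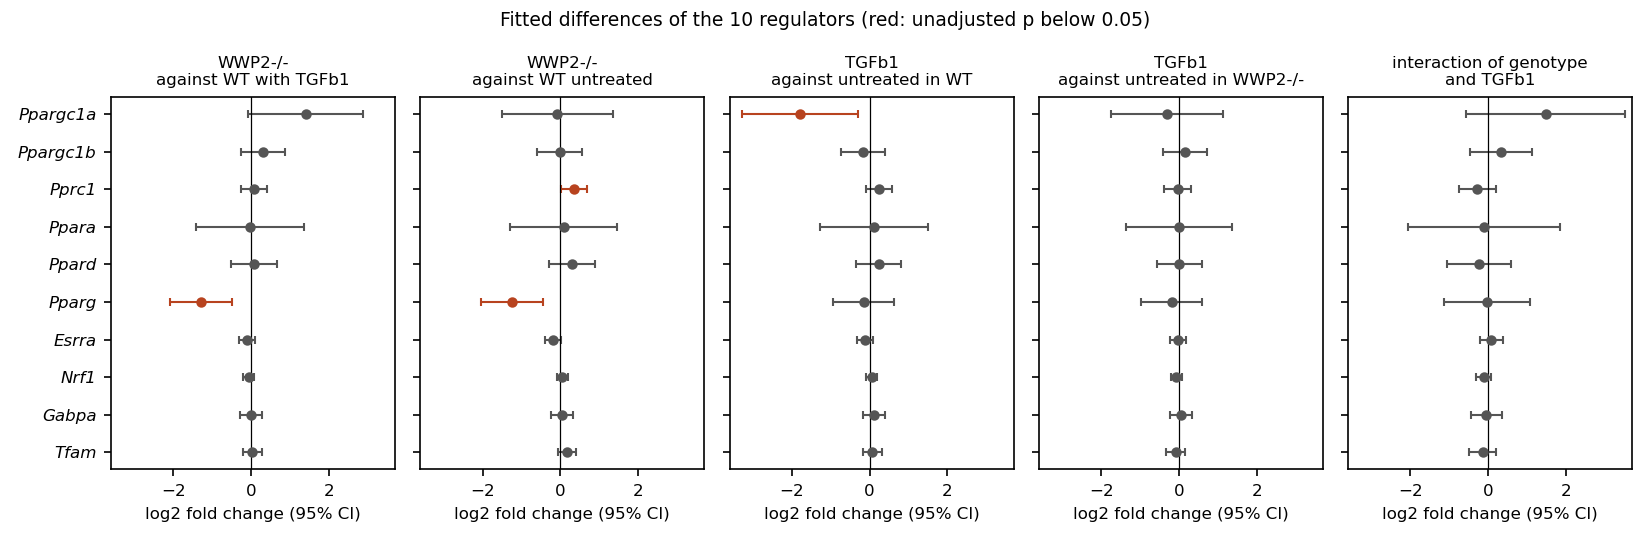
Log2 fold changes (x axis, points) with 95% confidence intervals (bars) of the 10 regulators (y axis) in the 5 comparisons, from the edgeR fit to all 20 libraries. Pparg is lower in WWP2-/- cells in both treatments (-1.28 and -1.25) and Ppargc1a is lower with TGFβ1 in WT cells (-1.79), all short of an adjusted p of 0.05, while Nrf1, Esrra, Gabpa and Tfam lie near 0.

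In untreated cells, the comparison of genotypes asks what loss of WWP2 does without added cytokine. It called 148 genes (0.725%), 21 higher and 127 lower, and none of the 10, with an adjusted p of at least 0.136 for each. Pparg was again lower, by -1.25 on the log2 scale (SE 0.38, interval -2.05 to -0.45, adjusted p = 0.136 by edgeR), and passed with DESeq2's Wald test (adjusted p = 0.0336), where 3.64% of all genes did, and without untreated WT replicate 4 (adjusted p = 0.0497 by edgeR). With Xist as a covariate it was -1.38 (adjusted p = 0.129 by edgeR). Within the libraries with Xist, WWP2-/- replicates 3 (3.08 CPM, little Acta2) and 1 (6.20 CPM, less Xist) stood against 4 WT libraries (12.3 to 18.3 CPM). Within those without Xist, 3 WWP2-/- libraries (6.69 to 10.1 CPM) lay on both sides of the 1 WT library (9.38 CPM). At an unadjusted p below 0.05, 2 of the 10 passed, Pparg and Pprc1, against 14.9% of all genes. No regulator was without overlap, against 2.82% of all genes.

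Pprc1 was 0.34 higher on the log2 scale in untreated WWP2-/- cells (SE 0.16, interval 0.00 to 0.68, adjusted p = 0.328 by edgeR). Without the 2 libraries with little Acta2 this value was 0.17, and with Xist as a covariate it was 0.47 (adjusted p = 0.102 by edgeR). Esrra was -0.20 (SE 0.10, adjusted p = 0.350) and Tfam 0.17 (SE 0.12, adjusted p = 0.501), and the others were between -0.08 and 0.30. The value of Ppargc1a was -0.08 (SE 0.68) with an interval of -1.51 to 1.35, which runs from 0.350 to 2.55 of the WT level. Without untreated WWP2-/- replicate 2, its highest library, it was -1.04, and with Xist as a covariate it was -0.69 (adjusted p = 0.597 by edgeR). The same covariate moved Ppard from 0.30 to 0.54 (adjusted p = 0.120) and Ppara from 0.08 to 0.72 (0.324).

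The effect of TGFβ1 was asked within each genotype, with the libraries taken as unpaired. Libraries of the 2 treatments may share cultures, and a test that ignores such pairs can miss a difference within them. A lack of calls here therefore does not show a lack of effect. In WT cells no gene of the 20407 was called by edgeR (0.0%), with 1397 (6.85%) at an unadjusted p below 0.05, and DESeq2's Wald test called 27. None of the 10 regulators was called by either test. Ppargc1a had the largest value, -1.79 on the log2 scale with TGFβ1 (SE 0.71, interval -3.27 to -0.30), at an unadjusted p of 0.0212 and an adjusted p of 0.644 by edgeR, and was the only regulator of the 10 with an unadjusted p below 0.05. The value stayed between -2.05 and -1.60 when any single library was left out. With the replicate number as a block it was -1.34, although same-numbered libraries did not deviate together and may share no culture. The other 9 lay between -0.17 and 0.24, and no regulator was without overlap (1.19% of all genes were).

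In WWP2-/- cells no gene was called by edgeR (0.0%), with 713 (3.49%) at an unadjusted p below 0.05, and DESeq2's Wald test called 49 genes, none of them among the 10. Each regulator had an adjusted p of 0.99995 by edgeR, none of the 10 passed without adjustment, and none was without overlap (0.421% of all genes were). Ppargc1a was -0.30 (SE 0.68, interval -1.74 to 1.13), and without untreated WWP2-/- replicate 2 it was 0.63. The interaction, which asks whether the effect of TGFβ1 differs by genotype, called no gene by edgeR (0.0%) and 10 by DESeq2, none of them a regulator. At an unadjusted p below 0.05 the edgeR count was 1424 genes (6.98%) and 0 of the 10. The interaction value of Ppargc1a was 1.48 (SE 0.98, interval -0.57 to 3.53, adjusted p = 0.841), so the difference between its values in WT and WWP2-/- cells did not pass the test. The 2 genotype comparisons share no library, whereas each treatment comparison shares libraries with both of them. Libraries of the 2 treatments may still share cultures, so the 2 genotype comparisons may not be independent. Untreated WWP2-/- replicate 3 was nearest to TGFβ1-treated WWP2-/- replicate 1 by its deviations from the group mean, and both had little Acta2. Whether they share a culture was not tested.

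The level of Ppargc1a moved with markers of other kidney cells. Over the 20 libraries, on the log2 scale, Pearson's r was 0.82 with the summed CPM of 10 macrophage markers and 0.80 with that of 11 tubular markers (Spearman's rho 0.85 and 0.86), as a description, since each library gives both values. The macrophage sum was 147 to 4270 CPM in untreated WT libraries (median 850.3), 72.1 to 467 with TGFβ1 in WT (median 142), 92.5 to 1982 in untreated WWP2-/- libraries (median 511) and 84.7 to 3754 with TGFβ1 in WWP2-/- (median 1001). All 10 macrophage markers had counts in every library, and Lyz2 had by far the highest median (356 CPM, with up to 3530 CPM), so it weighs most in the sum. Fcgr1 reached 1 CPM in 6 of 20 libraries and Mrc1 in 15. All 10 were positive in WWP2-/- against WT with TGFβ1 at an unadjusted p below 0.05 by edgeR, against 24.7% of all genes. With TGFβ1 in WT, 9 of 10 were negative at that level, against 6.85% of all genes. Untreated, 9 of 10 were negative in WWP2-/- cells, none at that level. In the interaction 9 of 10 were positive at that level, against 6.98% of all genes. None passed after adjustment by edgeR. The tubular sum was 31.1 to 381 CPM in untreated WT libraries, 33.5 to 190 with TGFβ1 in WT, 17.9 to 707 in untreated WWP2-/- libraries and 16.3 to 517 with TGFβ1 in WWP2-/-. Of the 11 tubular markers, 8 were tested. All 8 were positive in WWP2-/- against WT with TGFβ1 (median log2 fold change 1.38), 2 of them at an unadjusted p below 0.05 by edgeR, against 24.7% of all genes. Untreated, 5 of 8 were positive, 1 at that level. With TGFβ1 in WT, 6 of 8 were negative, 1 at that level. All 8 were positive in the interaction, none at that level. Of the tubular markers, the defining transporter Slc34a1 was at 0 in 19 of 20 libraries and Umod in 14, while Pax8 and Cdh16 made up most of the sum. Untreated WT replicate 3, the low library for Ppargc1a, was also the lowest of its group for both sums. The part of these cells in the Ppargc1a values was not tested.

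**Figure D3:**
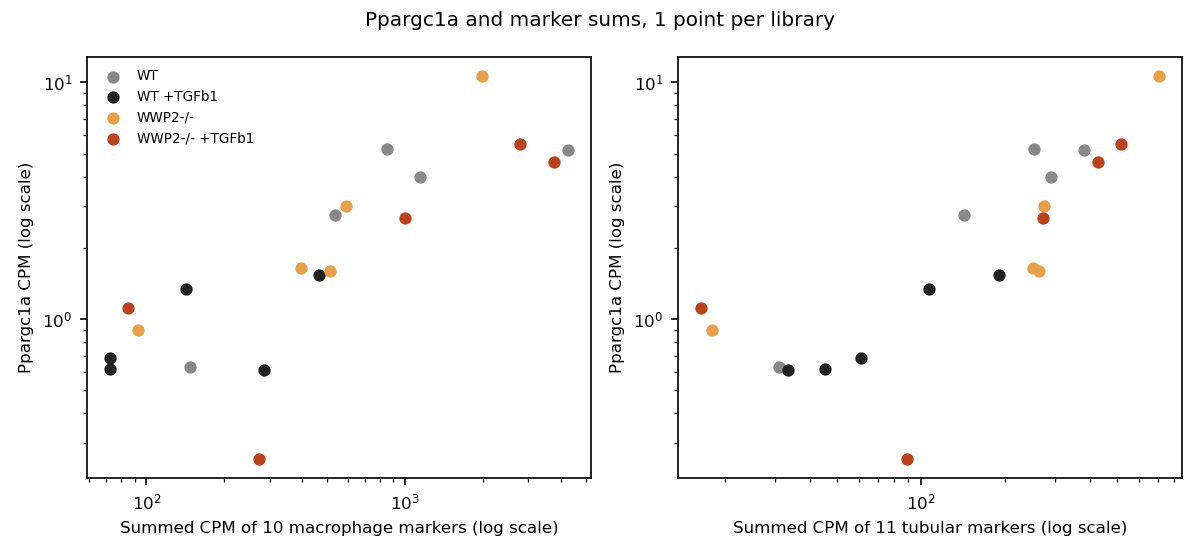
CPM of Ppargc1a (y axis, log scale) against the summed CPM (x axis, log scale) of 10 macrophage markers (left) and 11 tubular markers (right), with 1 point per library in the colour of its group. Libraries with higher sums have more Ppargc1a (r = 0.82 and 0.80 on the log2 scale), and no WT library with TGFβ1 exceeds 1.54 CPM of Ppargc1a or a macrophage sum of 467 CPM.

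For Ppargc1a, r without the 2 libraries with little Acta2 was 0.82 with the macrophage sum and 0.86 with the tubular sum, and r with the sum of the 10 myofibroblast markers went from -0.33 to -0.89. For Ppard the sign was the other way, with r = -0.83 against the tubular sum and -0.73 against the macrophage sum (-0.80 and -0.85 without the 2). Ppara followed Xist (r = 0.77, and 0.76 without the 2). With Xist, r was also 0.61 for Ppard (0.74 without the 2) and 0.36 for Pparg (0.69 without the 2). Gabpa was also negative against the macrophage sum (r = -0.79, and -0.75 without the 2). Tfam had r = -0.86 and rho = -0.62 against the myofibroblast sum, but -0.60 and -0.47 without the 2 libraries, which hold the lowest sums and the highest Tfam of their groups. Pparg had r = 0.14 with either the macrophage or the tubular sum, and -0.12 and -0.29 without the 2. Of the fat cell markers, Plin1, Cidec, Lep and Cfd had at most 3 counts in any library and Adipoq at most 0.528 CPM, while Fabp4 and Lipe were present at up to 20.5 and 10.6 CPM.

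By likeness of pattern over the 20 libraries (Pearson's r of log2 CPM among genes with a mean of at least 1 CPM), the 5 genes nearest to Ppargc1a were Slamf8 (r = 0.94), Phyhipl (0.94), Zfp641 (0.94), Pira2 (0.93) and Rassf6 (0.93). Slamf8 and Pira2 are known as transcripts of myeloid cells. The nearest to Pparg were Tspan12 (0.96) and Selenop (0.95), the nearest to Ppard Tank (0.98) and Map4k4 (0.97), and the nearest to Ppara Ifit1bl2 (0.91) and Rell2 (0.89). For Ppargc1b they were Mex3b (0.76) and Zfp143 (0.73), and Fbxw11 (0.97) was among the nearest to Pprc1. For the factors they were Ccs (0.84) and Ddrgk1 (0.83) for Esrra, Snrpa1 (0.90) and Zswim7 (0.83) for Nrf1, and Lmbr1l (0.91) and Pim3 (0.89) for Tfam, and Dgkh (0.93) was among the nearest to Gabpa. Among the 10 themselves the highest r was between Pprc1 and Ppard (0.82), which was 0.58 without the 2 libraries with little Acta2, and the lowest was between Ppargc1a and Gabpa (-0.74).

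The genes that these regulators serve were taken from 4 lists. The list closest to the mitochondrial function of the circuit, 48 nuclear genes of the respiratory chain, citrate cycle and related mitochondrial proteins, had no gene called in any of the 5 comparisons by edgeR. At an unadjusted p below 0.05, 6 of 48 passed in WWP2-/- against WT cells with TGFβ1 (4 positive, 2 negative) and 4 of 48 in untreated cells, against 24.7% and 14.9% of all genes. The median log2 fold change was -0.03 with TGFβ1 and -0.11 untreated, where that of all genes was 0.05 and 0.08. With TGFβ1 in WT cells 36 of 48 were negative, with a median of -0.06 against 0.02 for all genes and none below an unadjusted p of 0.05.

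Of 21 genes for maintenance and expression of mitochondrial DNA, 1 was called, Twnk, the helicase of the mitochondrial replication fork, where 6.07% of all genes were. It rose in WWP2-/- cells with TGFβ1 by 0.50 on the log2 scale (SE 0.14, adjusted p = 0.0475 by edgeR), from 20.5 ± 3.05 to 31.4 ± 5.09 CPM (SD, n = 5), with overlapping groups. The call held in 4 of 8 other settings, and of 10 single omissions only without WT replicate 3 or without WWP2-/- replicate 2 or 3. Untreated, Twnk was 0.53 higher (adjusted p = 0.0961).

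Of 46 known PPAR targets, 38 were tested and 2 were called, both with TGFβ1, where 6.07% of all genes were called. Plin2, the lipid droplet coat protein, rose by 1.51 in WWP2-/- cells (SE 0.32, adjusted p = 0.0137 by edgeR), from 145 ± 59.8 to 446 ± 113 CPM (SD, n = 5) with no overlap of the groups, and kept its call under all 18 alternatives. Cpt1a, the enzyme that admits fatty acids to mitochondria, fell by 0.74 (SE 0.20, adjusted p = 0.0350), from 171 ± 44.5 to 115 ± 31.6 CPM, and this call held in 5 of 8 other settings and, of 10 omissions, only without WT replicate 3 or WWP2-/- replicate 1. With Xist as a covariate Cpt1a was -0.48. The 2 called targets thus moved in opposite directions, and the median of the list was -0.03 against 0.05 for all genes. The macrophage markers, which were positive in the same comparison, were given above, and their part in the Plin2 value was not tested. Untreated, no target was called, 6 of 38 had an unadjusted p below 0.05 against 14.9% of all genes, 5 of them negative, and the list median was -0.18 against 0.08. The targets Plin1, Fabp1, Ucp3, Cidea, Cidec, Cyp4a10, Cyp4a14 and Pck1 were too low to test, with at most 8 counts in any library.

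Of 45 partners and coregulators, 44 were tested. With TGFβ1, 6 were lower and 1 higher in WWP2-/- cells, where 6.07% of all genes were called. Thra, thyroid hormone receptor α, fell by 1.34 (SE 0.27, adjusted p = 0.0121 by edgeR), from 68.0 ± 12.2 to 29.9 ± 7.08 CPM (SD, n = 5) with no overlap, and kept its call under all 18 alternatives, with a value of -0.87 with Xist as a covariate. Ncoa3, a p160 coactivator, fell by 0.71 (SE 0.21, adjusted p = 0.0482) from 72.99 ± 21.9 to 49.3 ± 4.50 CPM, a call that held in 4 of 8 other settings and, of 10 omissions, only without WT replicate 3 or WWP2-/- replicate 1, and the value with Xist as a covariate was -0.35. The remaining calls fell outside the rule for naming genes and were named after their values were seen. They were Rxra (-0.47), a partner of PPAR receptors, Smarcd3 (-0.57), Akt2 (-0.57) and Crtc3 (-0.51), which were lower, and Esrrb (2.20), which was higher at only 0.200 CPM against 0.0365 CPM in WT cells. Of these, Crtc3 kept its call under all 18 alternatives and Akt2 under 17 (not with Xist as a covariate), Esrrb was called in all 10 omissions, Smarcd3 in 7 (not without WT replicate 2 or 4 or WWP2-/- replicate 4) and Rxra in 4 (without WT replicate 3 or WWP2-/- replicate 1, 2 or 3). In the other settings, Esrrb was called in 5 of 7, Smarcd3 in 6 of 8 and Rxra in 5 of 8. Untreated, Mef2c, a muscle factor coactivated by PGC-1α, was lower by -1.68 (SE 0.38, adjusted p = 0.0480), at 1.43 ± 0.220 against 4.33 ± 1.45 CPM with no overlap, a call that held in 4 of 8 other settings and, of 10 omissions, only without WT replicate 4. No listed gene was called by edgeR in the treatment comparisons or in the interaction.

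**Figure D4:**
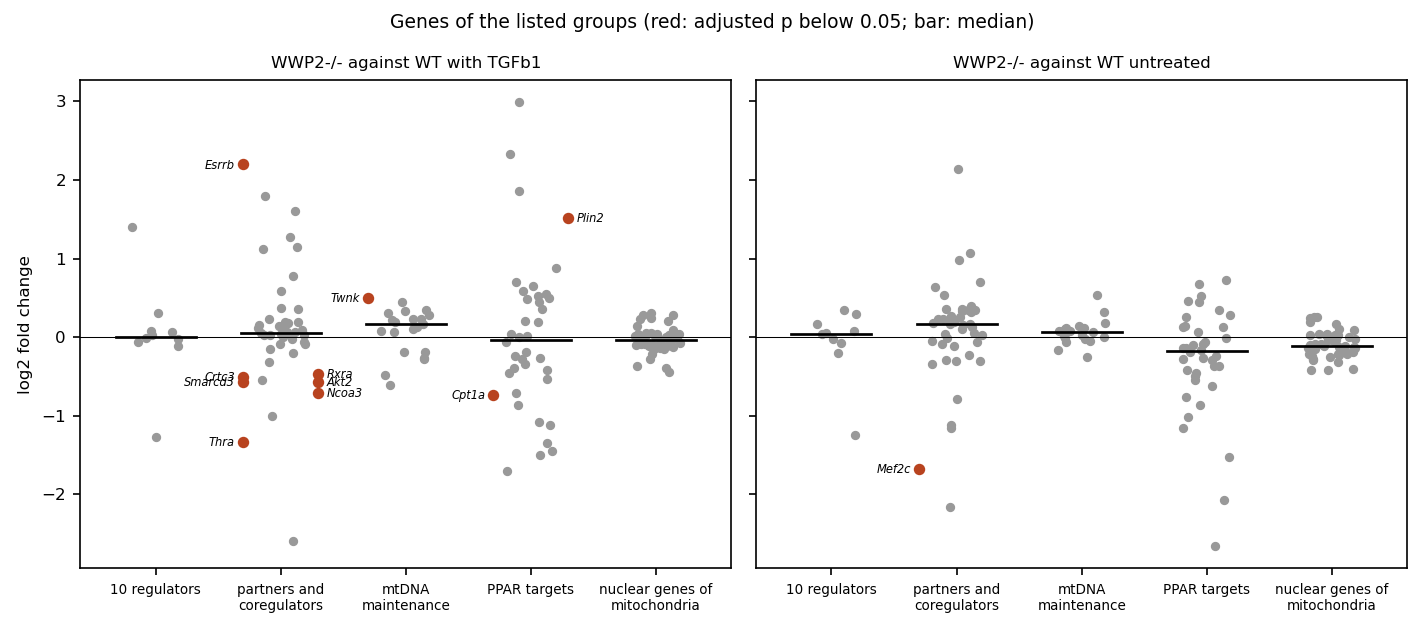
Log2 fold change (y axis) of each tested gene of the 10 regulators and the 4 lists (x axis, points spread sideways for legibility) in WWP2-/- against WT cells with TGFβ1 (left) and untreated (right), with the list median as a bar and genes at an adjusted p below 0.05 in red and named. The nuclear genes of mitochondria gather around 0 with none called, and Plin2 (1.51) and Cpt1a (-0.74) lie on opposite sides.

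Beside these lists, myofibroblast and vessel markers also differed between genotypes with TGFβ1. Of the 10 myofibroblast markers 2 were called, Col1a1 and Col1a2, both lower in WWP2-/- cells, where 6.07% of all genes were called and 7 of the 10 markers were negative. Of 8 endothelial markers Tek and Kdr were called lower, Tek also in untreated cells, but 5 of the 8 were positive with TGFβ1, their median log2 fold change was 0.53, and their summed CPM had a median of 130.1 in WWP2-/- against 73.3 in WT cells. No tubular, macrophage or adipocyte marker was called. The part of the cells that carry these markers in the values above was not tested.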

How the data were processed

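RNA-seq was available for 20 libraries of primary mouse renal myofibroblasts in 4 groups of 5. The authors aligned poly-A paired-end reads with STAR to GRCm38 and deposited raw counts per Ensembl gene over exons from featureCounts, whose strand setting is not given in the sources used here. The 10 genes and the gene lists were chosen with earlier results of these data known. The 20407 genes that reached 5 counts in 5 or more libraries were fitted in R 4.3.3 with edgeR 4.0.16 (TMM sizes, quasi-likelihood test, limma 3.58.1), all 20 libraries in 1 model, with Benjamini–Hochberg adjustment. TMM factors were 0.883 to 1.13, so the sign of a small fitted change can differ from that of the CPM means. Besides the 10 genes, each list named its 2 largest called rises and falls per comparison at a mean of at least 1 CPM. Correlations used log2 CPM with a prior count of 2. Some of the genes most like Pprc1 and Gabpa are not reported here. Alternatives were DESeq2 1.42.0 (size factors and Wald test), other filters, the groups compared alone, a replicate block, Xist as a covariate, single libraries left out and, chosen after seeing the data, 2 libraries left out. The code was tested on simulated data. Precision covers counting error only where few reads are given. Replicate numbers were taken from the labels, and same-numbered libraries did not deviate together from their group means, with correlations from -0.52 to 0.44. By these deviations, untreated WT replicates 1 to 5 were nearest to TGFβ1-treated WT replicates 1, 4, 5, 3 and 2. Xist of these pairs was 181 and 170, 110 and 120, 196 and 225, 0.085 and 0.126, and 212 and 217 CPM. Whether these libraries share cultures was not tested, and no test used this pairing. Gene positions are from the GRCm38 annotation and promoter windows from RefSeq.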

Additional observations from a re-analysis of the deposited data

Results flagged for a closer look

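Within a group of 5 libraries, 1 library of Ppargc1a stood far from the other 4: untreated WWP2-/- replicate 2 was at 10.6 CPM, and the nearest was at 3.01 CPM. Pprc1 in untreated WWP2-/- replicate 3 was at 99.5 CPM, with the nearest at 72.95 CPM. Ppard in the same library was at 118 CPM, with the nearest at 62.0 CPM. Ppard in TGFβ1-treated WWP2-/- replicate 1 was at 119.7 CPM, with the nearest at 54.2 CPM. Pparg in TGFβ1-treated WT replicate 4 was at 20.8 CPM, with the nearest at 12.2 CPM. Each gap exceeded 0.71 of the group's range, Dixon's critical value for 5 samples, which chance exceeds in about 1 of 20 groups. The rule was applied to each of the 10 regulators in each of the 4 groups, so some gaps of this size would arise by chance. Whether the flagged values outnumber those from chance was not tested. Of these 5 values, 3 come from the 2 libraries with little Acta2, and untreated WWP2-/- replicate 2 also had the highest macrophage and tubular marker sums of its group, 1982 and 707 CPM. The part of these markers in the values was not tested.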

How the results depend on the processing

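None of the 10 regulators was called by edgeR with all libraries. In WWP2-/- against WT with TGFβ1, the number called was 1 with DESeq2's Wald test, 1 with the replicate block, 2 without the 2 libraries with little Acta2, and 0 to 1 with single libraries left out. Untreated, it was 1 with the Wald test and 0 to 1 with single libraries left out. Of 1015 alternative values for the regulators, 911 kept direction and side of the threshold, 7 crossed it in the same direction (all Pparg) and 97 changed sign, and the cause was not tested. In WWP2-/- against WT with TGFβ1, log2 fold changes that changed sign were Pprc1 -0.051, Ppard -0.32 and Tfam -0.083 without the 2 libraries, Ppara 0.76 and Gabpa 0.093 with Xist as a covariate, and Ppard -0.0097 with the replicate block. Untreated, without the 2 libraries, they were Ppargc1a 0.12, Ppara -0.48, Ppard -0.061 and Gabpa -0.025. For TGFβ1 in WWP2-/- cells they were Pprc1 0.032 with Xist and 0.00799 without the 2 libraries, Ppara -0.24 with the replicate block, -0.20 with the block within genotype and -0.47 without the 2 libraries, and Ppard -0.0075, -0.011 and -0.036 in the same order. For the interaction they were Ppara 0.036 with Xist, and Pparg 0.0031 with at least 10 counts in every library and 0.0063 with the replicate block.

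With single libraries left out, values in WWP2-/- against WT with TGFβ1 ran from -0.098 to 0.062 (Gabpa), -1.06 to 0.24 (Ppara), -0.33 to 0.17 (Ppard), -0.065 to 0.15 (Pprc1) and -0.095 to 0.077 (Tfam). Untreated, they ran from -0.044 to 0.086 (Gabpa), -0.47 to 0.26 (Ppara), -0.059 to 0.36 (Ppard), -1.04 to 0.14 (Ppargc1a) and -0.21 to 0.13 (Ppargc1b). For TGFβ1 in WT cells they ran from -0.14 to 0.28 (Ppara) and -0.34 to 0.011 (Ppargc1b). For TGFβ1 in WWP2-/- cells they ran from -0.067 to 0.036 (Esrra), -0.99 to 0.55 (Ppara), -0.37 to 0.35 (Ppard), -0.65 to 0.63 (Ppargc1a), -0.14 to 0.13 (Pprc1) and -0.17 to 0.022 (Tfam). For the interaction they ran from -0.11 to 0.055 (Gabpa), -1.10 to 0.44 (Ppara), -0.60 to 0.12 (Ppard) and -0.34 to 0.29 (Pparg).

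Over all genes, the 1238 calls with TGFβ1 became 2672 (Wald), 790 (no filter), 670 (replicate block), 531 (Xist), 569 (only the groups compared) and 3480 (without the 2 libraries). The 148 untreated calls became 743, 113, 1, 78, 1 and 271 in the same order. With single libraries left out they ran from 453 (without WT replicate 2) to 2730 (without WT replicate 3) with TGFβ1, and from 1 (5 of 10 omissions) to 743 (without WT replicate 4) untreated. With Xist as a covariate 293 of 531 and 56 of 78 calls were higher in WWP2-/- cells, and with the Wald test 1284 of 2672 and 212 of 743. TGFβ1 in WWP2-/- cells gave 63 calls without untreated replicate 3. Ppara was too low to test with at least 10 counts in every library.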
